A study of Homo sapiens with 12 samples.

Results

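The transcripts described here are long non-coding RNAs named after a neighbouring gene, read in A549 cells, a human lung adenocarcinoma line. They are the rows of the gene count table whose symbol ends in -AS1, -AS2, -AS3 (antisense) or -DT (divergent transcript) and whose mean reached 1 CPM (counts of a gene per 1000000 counts in all genes of the library) in at least 1 of the 4 groups. Of 60676 gene rows, 2399 had such a name, 497 of these had no count in any library, and 474 met the threshold: 320 antisense and 154 divergent names. They were thus chosen by their measured levels, which are given below as a description. The last inside the threshold were B4GALT1-AS1 (1.008 CPM in its highest group), A1BG-AS1 (1.009 CPM) and INO80D-AS1 (1.009 CPM), and the first outside it were ZNF32-AS2 (0.9953 CPM), BRPF3-AS1 (0.9943 CPM) and DNAJC9-AS1 (0.9941 CPM). Of the 474, 341 reached the threshold in all 4 groups and 133 in some groups only, so that a transcript high in 1 group could enter through that group. All 474 passed the filter on low counts, which left 16192 genes for testing.

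The study set LETS1-overexpressing A549 cells against cells with the empty lentiviral vector (Co.vec, pCDH-EF1a-PURO), each with TGF-β or with ligand buffer. LETS1 is a long non-coding RNA that the vector's EF1a promoter drives; both lines were infected with lentivirus and selected with puromycin, so the vector, the infection and the selection were common to all libraries. The groups were LETS1 cells given TGF-β at 5 ng/mL for 4 h, LETS1 cells in buffer, Co.vec cells given the same TGF-β, and Co.vec cells in buffer, with 3 libraries each, numbered as biological replicates. Whether replicates were infected separately is not given in the sources used here, and the p-values measure the spread between these libraries. No row of the table carries the name LETS1, so the overexpression was not checked here.

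Each library held 19705135 to 20351043 fragments assigned to genes, of which 0.1986% to 0.2347% fell in the 474 transcripts. All 9 markers of A549 or epithelial cells fixed for the check were detected in every library, EPCAM lowest at 6.37 to 8.58 CPM, and the 4 alveolar markers were near 0. Markers of other cell types were at or near 0 apart from LUM and COL1A1. COL1A1 averaged 139 CPM in LETS1 cells with TGF-β against 20.2 CPM in LETS1 cells in buffer, and 124 CPM in Co.vec cells with TGF-β against 13.6 CPM in Co.vec cells in buffer. LUM averaged 1.62 CPM in LETS1 cells against 0.319 CPM in Co.vec cells with TGF-β, and 1.16 CPM in LETS1 cells against 0.253 CPM in Co.vec cells in buffer; the part of these markers in the results was not tested.

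Antisense transcripts run across a gene on the opposite strand, and divergent transcripts leave a promoter in the direction away from its gene. Many promoters of human genes, above all those rich in CpG, start transcription both ways, and most products on the non-coding side are short-lived and low in abundance. A few antisense RNAs act on the gene they face, while others work elsewhere in the cell, as OIP5-AS1 (Cyrano), a stable RNA that pairs with the microRNA miR-7. TGF-β signals through receptor kinases that phosphorylate SMAD2 and SMAD3, which enter the nucleus with SMAD4 and change transcription of their target genes within hours; in carcinoma cells of epithelial origin these include genes of the epithelial-mesenchymal transition.

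The symbol before the hyphen names the partner gene, and a row for it was found for 471 of the 474; HOXA-AS2, HOXB-AS3 and HOXC-AS1 carry the name of a gene cluster and have none. In the GENCODE 29 annotation of GRCh38, 126 pairs were divergent, with the starts a median of 139.5 bases apart. A further 135 transcripts started inside the partner within 1000 bases of its start, so that the heads of both genes overlapped. Another 196 overlapped the partner otherwise on the opposite strand, with a median 6.557% of their exon bases under partner exons and 38.82% within partner introns. Of the rest, 12 lay apart on the opposite strand, and FAM131B-AS2 lay on the strand of its partner. The counts did not separate strands: of 322 antisense-type rows lying wholly under exons of the opposite strand, 316 had no count, whereas 1597 of 2434 rows clear of such exons had counts. A fragment on bases under exons of both a row and its partner would thus count for neither. A fragment from intron RNA of the partner that fell on a row's own exons would count for that row. On such bases, fragments of a gene and its antisense partner cannot be told apart.

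In 118 pairs the RefSeq start of the transcript lay upstream of the partner's start, by at most 250 bases. Windows were taken from 10 of these, among pairs with both genes called in the same direction in both ligand or both LETS1 comparisons. Pairs called in opposite directions in both ligand comparisons were also taken. Those of RASAL2, DPH5, HHIP and PDCD6IP are not printed, and 6 are shown, from pairs described further on. Each runs from 250 bases before to 50 bases after the start of the partner gene, 5′ to 3′ on the partner's strand (RefSeq, GRCh38.p14), with the bases from the start of the non-coding transcript to that of the partner in capitals. SOX21 (chr13:94712496-94712795, minus strand, 171 bases between the starts) and ELF3 (chr1:202010337-202010636, plus strand, 234 bases) are pairs that fell together with TGF-β. So is ID2 (chr2:8681806-8682105, plus strand, 193 bases). SSTR5 (chr16:1078576-1078875, plus strand, 95 bases) fell with its antisense transcript in LETS1 cells. In TMCC1 (chr3:129893662-129893961, minus strand, 160 bases) and DICER1 (chr14:95157480-95157779, minus strand, 159 bases) the ligand moved both transcripts in opposite directions.
SOX21: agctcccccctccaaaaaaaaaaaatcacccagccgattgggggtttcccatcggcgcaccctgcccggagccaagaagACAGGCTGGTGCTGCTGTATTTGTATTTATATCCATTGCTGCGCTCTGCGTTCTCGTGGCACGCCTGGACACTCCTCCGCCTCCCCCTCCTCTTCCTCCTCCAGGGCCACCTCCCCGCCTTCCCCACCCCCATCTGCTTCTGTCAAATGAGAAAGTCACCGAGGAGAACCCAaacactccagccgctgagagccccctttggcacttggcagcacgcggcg
ELF3: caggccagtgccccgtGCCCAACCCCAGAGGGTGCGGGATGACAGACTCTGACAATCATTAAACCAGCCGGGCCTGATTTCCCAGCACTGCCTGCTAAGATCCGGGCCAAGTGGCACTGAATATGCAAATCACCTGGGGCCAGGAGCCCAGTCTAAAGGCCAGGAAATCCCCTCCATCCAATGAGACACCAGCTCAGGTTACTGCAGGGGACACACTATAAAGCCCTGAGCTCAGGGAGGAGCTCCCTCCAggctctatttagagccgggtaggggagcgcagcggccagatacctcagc
ID2: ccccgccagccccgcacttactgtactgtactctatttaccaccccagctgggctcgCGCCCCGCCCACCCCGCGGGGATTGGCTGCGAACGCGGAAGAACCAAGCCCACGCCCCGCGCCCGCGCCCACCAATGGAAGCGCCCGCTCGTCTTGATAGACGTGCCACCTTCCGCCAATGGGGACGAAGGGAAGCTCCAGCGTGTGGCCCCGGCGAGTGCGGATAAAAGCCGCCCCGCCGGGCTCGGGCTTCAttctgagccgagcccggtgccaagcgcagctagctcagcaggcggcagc
SSTR5: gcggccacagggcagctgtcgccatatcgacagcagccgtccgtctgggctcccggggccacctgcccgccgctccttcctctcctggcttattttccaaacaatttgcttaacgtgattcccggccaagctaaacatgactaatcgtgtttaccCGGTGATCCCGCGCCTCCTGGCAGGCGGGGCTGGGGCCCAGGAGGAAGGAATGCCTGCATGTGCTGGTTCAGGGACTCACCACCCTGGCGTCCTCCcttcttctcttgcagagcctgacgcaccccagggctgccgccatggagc
TMCC1: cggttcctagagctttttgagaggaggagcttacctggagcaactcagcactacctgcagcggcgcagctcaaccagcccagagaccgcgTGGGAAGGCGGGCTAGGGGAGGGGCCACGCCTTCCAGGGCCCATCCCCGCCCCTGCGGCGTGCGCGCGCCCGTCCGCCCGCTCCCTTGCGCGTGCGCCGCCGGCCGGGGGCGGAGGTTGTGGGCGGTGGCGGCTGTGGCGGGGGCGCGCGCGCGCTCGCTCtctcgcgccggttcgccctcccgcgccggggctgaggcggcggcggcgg
DICER1: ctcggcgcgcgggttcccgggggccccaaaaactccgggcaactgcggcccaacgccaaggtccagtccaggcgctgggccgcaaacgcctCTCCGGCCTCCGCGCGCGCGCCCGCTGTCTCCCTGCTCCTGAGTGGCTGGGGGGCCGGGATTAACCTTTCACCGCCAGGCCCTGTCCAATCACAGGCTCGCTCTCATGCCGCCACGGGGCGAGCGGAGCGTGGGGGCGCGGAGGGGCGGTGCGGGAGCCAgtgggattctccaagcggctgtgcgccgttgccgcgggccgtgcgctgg

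The windows of the transcripts and those of their partners were both richer in G and C than promoters at large. A window of 300 bases was available for 361 of them, and 382 partners had one. Mean GC content was 65.29% in the 361, 65.52% in the 382 partner windows, 68.33% in the 118 windows with both starts, and 57.25% over all 27305 RefSeq windows. The GC box GGGCGG, searched on both strands like the motifs that follow, was in 66.76% of the transcripts' windows and 74.58% of the windows with both starts, against 44.59% of all windows. TATAAA was in 5.54% of the transcripts' windows against 11.95% of all windows. The SMAD core CAGAC was in 43.49% against 44.95%, in 53.33% of the 30 windows of transcripts higher with TGF-β in either line, and in 45.83% of the 120 windows of those lower. The AP-1 site TGANTCA was in 3.878% of the transcripts' windows against 7.764% of all windows, in 6.667% of the 30 windows and in 4.167% of the 120. The cyclic AMP response element TGACGTCA was in 3.601% of the transcripts' windows against 1.978% of all windows, in 10% of the 30 windows (3 windows) and in 0.8333% of the 120 (1 window). The 382 partner windows had shares near those of the transcripts. They were 67.8% for GGGCGG, 7.068% for TATAAA, 42.93% for CAGAC, 3.665% for TGANTCA and 4.188% for TGACGTCA. Among the sequences shown, CAGAC is in the ELF3 and SSTR5 windows, TATAAA in those of SOX21 and ELF3, and GGGCGG in those of ID2, TMCC1 and DICER1; such a match is a description of letters and not a bound site.

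Levels were low. The transcripts had a median mean level of 2.044 CPM over the 12 libraries (scaled by TMM, as all CPM values below), from 0.4486 to 197.8 CPM, while partners had a median of 36.73 CPM and all tested genes 16.94 CPM. In 372 of the 474 the mean was under 5 CPM and in 13 it was over 20 CPM. Levels per kilobase were taken over exon bases under no exon of any other gene, on either strand. In the 432 pairs with at least 200 such bases in both genes, the median was 1.14 CPM for the transcripts and 6.875 CPM for partners. The transcript stood above its partner in 75 pairs. By that measure, divergent transcripts had a median of 13.94% of the partner's level and overlapping antisense ones 30.43%. The most abundant were FGD5-AS1 (197.8 CPM), OIP5-AS1 (106.8 CPM), IGFL2-AS1 (55.31 CPM), GABPB1-AS1 (35.70 CPM), NUTM2A-AS1 (32.09 CPM) and SLC12A2-DT (30.44 CPM). FGD5-AS1 (chr3:14920347-14948424, minus strand) passed the test in no comparison: it had 202, 204 and 200 CPM in LETS1 cells with TGF-β, 190, 191 and 198 CPM in LETS1 cells in buffer, 199, 189 and 202 CPM in Co.vec cells with TGF-β, and 207, 198 and 193 CPM in Co.vec cells in buffer.

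With TGF-β, far more of these transcripts were lower than higher in both lines. In LETS1 cells, 31 were higher and 107 lower with TGF-β than in buffer (edgeR quasi-likelihood test, adjusted p under 0.05 over all genes), together 29.1% of the 474, where 38.7% of all tested genes passed, 19.7% higher and 19.1% lower. In Co.vec cells, 38 were higher and 101 lower, together 29.3%, against a background of 39.7%, 21.1% higher and 18.6% lower. Over all levels pooled, the share lower was 22.6% in LETS1 cells and 21.3% in Co.vec cells, near that of all genes, and the share higher was 6.54% and 8.02%, under it. In bulk cultures, fewer cells with a transcript and less of it per cell cannot be told apart. The median log2 fold change of the 474 was −0.19 in LETS1 cells and −0.15 in Co.vec cells, against −0.02 in both over all tested genes. Part of this gap goes with level. Under 2 CPM the medians were −0.19 against −0.12 of all genes in LETS1 cells, and −0.15 against −0.10 in Co.vec cells. From 5 to 20 CPM they were −0.22 against −0.04 in LETS1 cells, and −0.19 against −0.03 in Co.vec cells. Their partners split the other way: of 428 tested partners, 118 were higher and 78 lower in LETS1 cells, and 132 higher and 77 lower in Co.vec cells. Those are 27.6% higher and 18.2% lower in LETS1 cells, and 30.8% and 18.0% in Co.vec cells. Partners are mostly well expressed, and of all genes over 20 CPM 26.7% were higher and 19.7% lower in LETS1 cells. In Co.vec cells these shares were 27.7% and 20.7%, so the split of partners is near that of such genes and not a separate result. Among 241 other long non-coding RNAs at the same threshold, 31 were higher and 63 lower in LETS1 cells, and 38 higher and 54 lower in Co.vec cells.

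Within classes of mean level the share lower was above that of all genes in each class, by amounts that differed between classes. Among transcripts with a mean of 5 to 20 CPM, 7 of 89 were higher and 39 lower with TGF-β in LETS1 cells, against 619 higher and 815 lower of 3304 genes at that level. In Co.vec cells the same class had 9 higher and 32 lower, against 695 higher and 750 lower of all genes. Those are 43.8% lower against 24.7% of genes in LETS1 cells, and 36.0% against 22.7% in Co.vec cells. Under 2 CPM, 16 of 234 were higher and 34 lower in LETS1 cells, against 309 and 435 of 3686 genes, and 16 higher and 35 lower in Co.vec cells, against 365 and 403 of the genes. In this class the 2 sets were not chosen alike. The transcripts had to reach 1 CPM in a group, while the genes had only to pass the filter on low counts. Transcripts high in 1 group are thus favoured there, and the part of this in the difference was not tested. From 2 to 5 CPM the shares were closer. Of 138 transcripts, 22.5% were lower in LETS1 cells against 21.1% of genes, and 21.7% in Co.vec cells against 18.0%. Over 20 CPM there were only 13 transcripts, 3 lower in LETS1 cells and 4 in Co.vec cells. Antisense names (28 higher and 67 lower of 320) and divergent names (10 higher and 34 lower of 154) both leaned to lower levels in Co.vec cells. The summed level of all 474 was 2043 to 2049 CPM in LETS1 cells with TGF-β against 2240 to 2296 CPM in LETS1 cells in buffer, and 2067 to 2101 CPM in Co.vec cells with TGF-β against 2225 to 2291 CPM in Co.vec cells in buffer. No library with the ligand reached the lowest one in buffer. The share of fragments that fell in more than 1 gene and were not counted moved the same way, at 10.1% to 10.27% with TGF-β and 10.47% to 10.86% in buffer, and so did the share outside any gene, 2.81% to 3.17% against 3.21% to 3.53%; their part in the result was not tested.

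**Figure D1:**
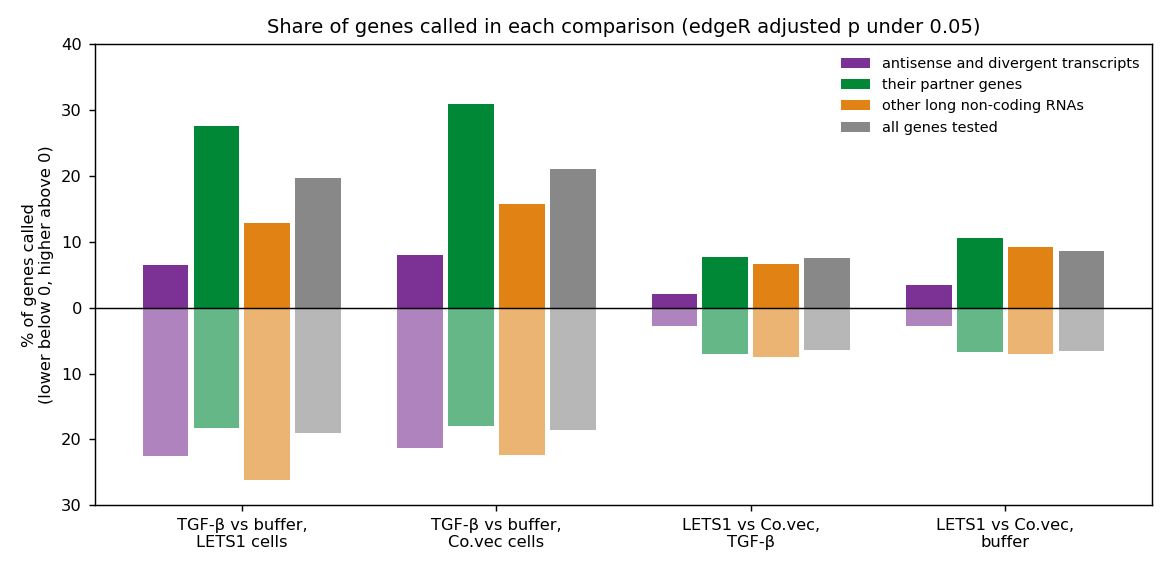
Share of genes called higher (above 0) and lower (below 0) in each comparison, in percent of the genes in each set, for the antisense and divergent transcripts, their partners, other long non-coding RNAs and all tested genes. With TGF-β more of the transcripts lie below 0 than above it in both lines, and so do other long non-coding RNAs. The share below 0 is 22.6% of the transcripts and 26.1% of the other long non-coding RNAs in LETS1 cells. In Co.vec cells it is 21.3% and 22.4%. More partners lie above 0 than below it. In the LETS1 comparisons both shares of the transcripts are under those of all genes.

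The 2 ligand comparisons share no library. Of transcripts higher with TGF-β, 21 were called in both lines, 67.74% of the LETS1 list and 55.26% of the Co.vec list. Of those lower, 59 were called in both, 55.14% of the LETS1 list and 58.42% of the Co.vec list. The same overlap over all tested genes was not counted, so these shares cannot be read as high or low. IDI2-AS1 alone was called in opposite directions, and neither call held throughout: the LETS1 one was lost without LETS1 TGF-β replicate 1 or 3 or LETS1 buffer replicate 2 or 3 (adjusted p up to 0.175), and the Co.vec one without Co.vec TGF-β replicate 2 or Co.vec buffer replicate 2 (adjusted p = 0.084 and 0.066).

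SPACA6-AS1, CLDN14-AS1, RARA-AS1, SLFNL1-AS1 and PUS1-AS1 met the threshold of 1 CPM through their TGF-β groups alone, so that a high level with TGF-β beside a low one in buffer is part of how they entered. SPACA6-AS1 (chr19:51685363-51693456, minus strand), antisense to a gene for a sperm membrane protein needed for fertilisation in mice, had 0.974, 1.3 and 1.27 CPM in LETS1 cells with TGF-β against 0.635, 0.393 and 0.488 CPM in LETS1 cells in buffer. In Co.vec cells it had 1.44, 1.39 and 1.46 CPM with TGF-β against 0.198, 0.248 and 0.251 CPM in buffer, where the 3 libraries held 14 fragments in all. Every library with TGF-β was above every library in buffer. The log2 fold change was 1.22 ± 0.30 (SE) in LETS1 cells (adjusted p = 0.00098) and 2.59 ± 0.34 in Co.vec cells (adjusted p = 4.8e-08). SPACA6 itself rose by 0.48 in LETS1 cells and 0.30 in Co.vec cells; the Co.vec call of SPACA6 was lost without Co.vec buffer replicate 2 or 3 or Co.vec TGF-β replicate 2 (adjusted p up to 0.241).

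CLDN14-AS1 (chr21:36445731-36532408, plus strand) lies across CLDN14, a claudin of tight junctions. It had 2.92, 2.86 and 3.1 CPM in LETS1 cells with TGF-β against 0.781, 0.981 and 0.684 CPM in LETS1 cells in buffer, and 3.34, 2.94 and 2.56 CPM in Co.vec cells with TGF-β against 0.791, 0.297 and 0.451 CPM in Co.vec cells in buffer. The ligand groups did not overlap their buffer groups in either line, and the log2 fold change was 1.85 ± 0.23 in LETS1 cells (adjusted p = 1e-08) and 2.50 ± 0.25 in Co.vec cells (adjusted p = 9.4e-11). CLDN14, at lower levels, moved the same way: in LETS1 cells it had 1.08, 1.15 and 0.61 CPM with TGF-β against 0.146, 0.294 and 0 CPM in buffer. In Co.vec cells the libraries held 42 fragments of CLDN14 with TGF-β against 2 in buffer, a ratio of 20.8 (exact 95% interval 5.42 to 178, counting error only). Of the exon bases of CLDN14-AS1, 11.2% lie under CLDN14 exons and 37.2% in its introns.

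RARA-AS1 (chr17:40340867-40343136, minus strand) faces the gene of retinoic acid receptor alpha, a ligand-activated transcription factor, and has 31.1% of its exon bases under RARA exons and 68.9% in RARA introns. It had 2.46, 2.11 and 2.39 CPM in LETS1 cells with TGF-β against 0.976, 0.442 and 0.391 CPM in LETS1 cells in buffer, and 1.8, 2.99 and 2.66 CPM in Co.vec cells with TGF-β against 0.494, 0.545 and 0.401 CPM in Co.vec cells in buffer. It rose by 1.93 ± 0.27 in LETS1 cells and 2.35 ± 0.28 in Co.vec cells on the log2 scale, with no overlap between ligand and buffer groups, while RARA rose by 0.77 and 0.68. SLFNL1-AS1 rose by 1.01 in LETS1 cells and 2.09 in Co.vec cells with SLFNL1 (1.42 and 1.74), and PUS1-AS1 by 0.97 and 2.32 with the pseudouridine synthase gene PUS1 (0.73 and 0.75). The PUS1-AS1 call in LETS1 cells was lost without LETS1 buffer replicate 2 (adjusted p = 0.082) or LETS1 TGF-β replicate 2 (adjusted p = 0.132).

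TMEM92-AS1 (chr17:50281577-50287855, minus strand) shares no base of its exons with its partner, and the pair rose together. It had 5.79, 4.77 and 6.05 CPM in LETS1 cells with TGF-β against 2.39, 2.35 and 1.91 CPM in LETS1 cells in buffer, and 6.63, 6.54 and 6.37 CPM in Co.vec cells with TGF-β against 3.06, 1.78 and 2.71 CPM in Co.vec cells in buffer. Ligand and buffer groups stood fully apart, with log2 fold changes of 1.32 in LETS1 cells and 1.37 in Co.vec cells, beside 1.13 and 0.94 for TMEM92, the gene of a transmembrane protein. PDCD6IP-DT, named here after its values were seen, also rose with its divergent partner, the ESCRT-associated gene PDCD6IP (ALIX): by 0.81 in LETS1 cells and 1.26 in Co.vec cells, beside 0.36 and 0.34 for PDCD6IP.

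**Figure D2:**
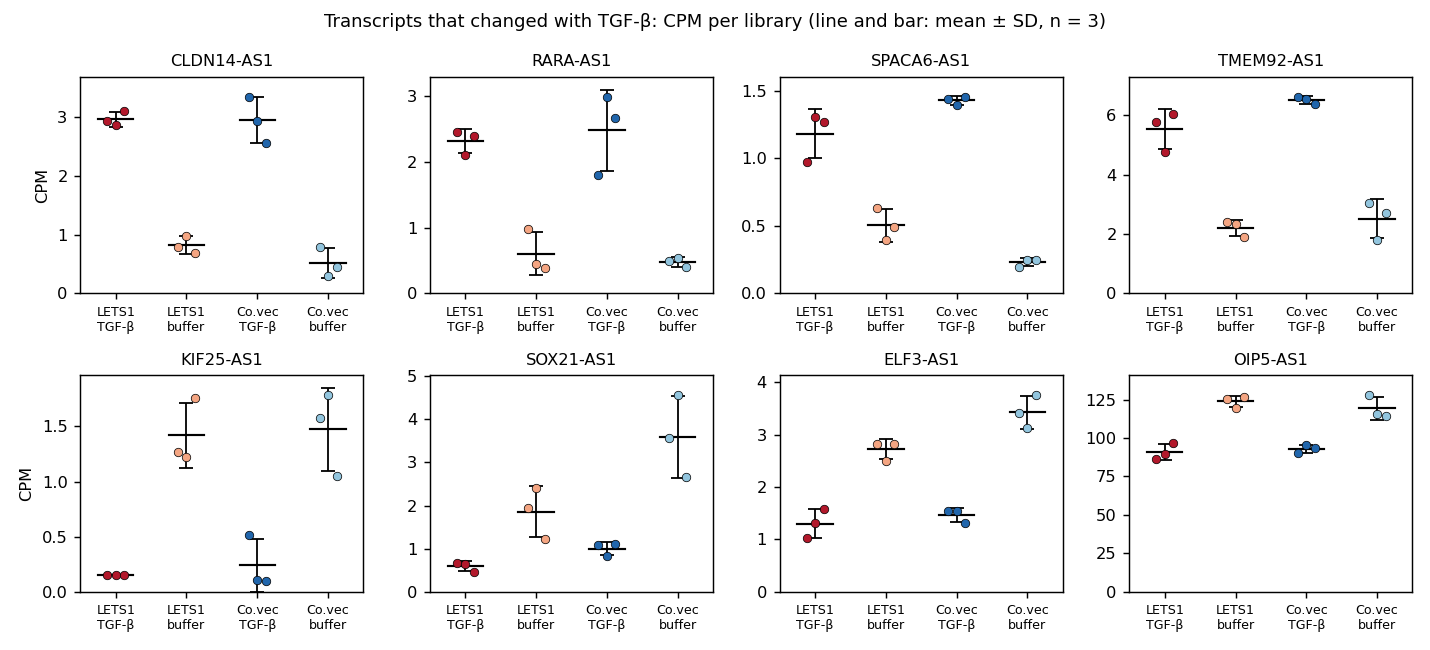
Level of 8 antisense transcripts in CPM (vertical axis from 0) in each library of the 4 groups, with points for libraries and lines with bars for the mean ± SD (n = 3). CLDN14-AS1, RARA-AS1, SPACA6-AS1 and TMEM92-AS1 are higher in every library with TGF-β than in any library in buffer of the same line; KIF25-AS1, SOX21-AS1, ELF3-AS1 and OIP5-AS1 are lower.

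KIF25-AS1 (chr6:167992822-167997077, minus strand), antisense to a kinesin gene that was itself too low to test, met the threshold through its buffer groups alone, so its fall is in part how it entered. It had 0.154, 0.15 and 0.152 CPM in LETS1 cells with TGF-β against 1.27, 1.23 and 1.76 CPM in LETS1 cells in buffer, and 0.514, 0.103 and 0.1 CPM in Co.vec cells with TGF-β against 1.58, 1.78 and 1.05 CPM in Co.vec cells in buffer. The highest library with TGF-β lay below the lowest in buffer in both lines. The log2 fold change was −3.17 ± 0.43 in LETS1 cells and −2.60 ± 0.39 in Co.vec cells; LETS1 libraries with TGF-β held 9 fragments in all.

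SOX21-AS1 (chr13:94712716-94716246, plus strand) is divergent to SOX21, an SRY-box transcription factor, and shares none of its exon bases with it. It had 0.666, 0.652 and 0.458 CPM in LETS1 cells with TGF-β against 1.95, 2.4 and 1.22 CPM in LETS1 cells in buffer, and 1.08, 0.824 and 1.1 CPM in Co.vec cells with TGF-β against 3.56, 4.56 and 2.65 CPM in Co.vec cells in buffer. It fell by 1.64 in LETS1 cells and by 1.83 in Co.vec cells on the log2 scale, with no overlap between groups. SOX21 had 0.512, 0.502 and 0.813 CPM in LETS1 cells with TGF-β against 1.66, 1.32 and 1.91 CPM in LETS1 cells in buffer, and 0.873, 0.824 and 0.753 CPM in Co.vec cells with TGF-β against 4.3, 4.36 and 3.91 CPM in Co.vec cells in buffer. The partner thus fell with the ligand too, with a log2 fold change of −1.41 in LETS1 cells and −2.35 in Co.vec cells. In buffer, LETS1 cells had less of both than Co.vec cells, with log2 fold changes of −0.95 for SOX21-AS1 (adjusted p = 0.00069) and −1.36 for SOX21. With TGF-β the LETS1 difference of SOX21-AS1 was −0.75 (adjusted p = 0.15).

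ELF3-AS1 (chr1:201995696-202010463, minus strand) starts near ELF3, an ETS factor of epithelial cells. It had 1.02, 1.3 and 1.58 CPM in LETS1 cells with TGF-β against 2.83, 2.5 and 2.83 CPM in LETS1 cells in buffer, and 1.54, 1.55 and 1.3 CPM in Co.vec cells with TGF-β against 3.41, 3.12 and 3.76 CPM in Co.vec cells in buffer. ELF3 had 30.3, 30.1 and 29.6 CPM in LETS1 cells with TGF-β against 106, 111 and 113 CPM in LETS1 cells in buffer, and 47.4, 50.5 and 50.7 CPM in Co.vec cells with TGF-β against 111, 115 and 119 CPM in Co.vec cells in buffer. No library with TGF-β overlapped one in buffer for either gene. The log2 fold changes of ELF3-AS1 and ELF3 were −1.06 and −1.87 in LETS1 cells, and −1.23 and −1.22 in Co.vec cells. For ELF3 the difference between the responses passed its own test (−0.66); for ELF3-AS1 it did not.

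ID2-AS1 (chr2:8666636-8681863, minus strand) leaves the promoter of ID2, an inhibitor of basic helix-loop-helix factors that TGF-β is known to repress in epithelial cells. It had 4.56, 3.91 and 5.69 CPM in LETS1 cells with TGF-β against 6.44, 5.94 and 6.3 CPM in LETS1 cells in buffer, and 3.65, 5 and 4.17 CPM in Co.vec cells with TGF-β against 6.18, 6.74 and 5.66 CPM in Co.vec cells in buffer. Groups did not overlap in either line. It fell with log2 fold changes of −0.40 ± 0.13 in LETS1 cells and −0.54 ± 0.14 in Co.vec cells, beside −1.47 and −1.12 for ID2; the difference in size between the genes was not tested. The ID2-AS1 call in LETS1 cells was lost without LETS1 TGF-β replicate 2 (−0.28, adjusted p = 0.139), LETS1 TGF-β replicate 1 (adjusted p = 0.055) or LETS1 buffer replicate 1 (adjusted p = 0.053).

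Among the large falls were also 2 transcripts that lie almost wholly within introns of their partners and likewise met the threshold through their buffer groups alone. VAC14-AS1 (chr16:70755098-70773251, plus strand), with 98.7% of its exon bases in introns of VAC14, a scaffold of the lipid kinase PIKfyve, fell by 1.24 in LETS1 cells and by 1.80 in Co.vec cells on the log2 scale, and VAC14 was not called in either. BASP1-AS1 (chr5:17130028-17217047, minus strand), with 97.5% in introns of BASP1, a gene for a membrane-bound acidic protein, had log2 fold changes of −1.36 in LETS1 cells and −1.49 in Co.vec cells, beside −0.29 and −0.44 for BASP1. The most abundant transcript that fell in both lines was OIP5-AS1 (chr15:41283990-41309737, plus strand). It had 86.4, 89.7 and 96.8 CPM in LETS1 cells with TGF-β against 125, 119 and 127 CPM in LETS1 cells in buffer, and 90.4, 95.6 and 93.3 CPM in Co.vec cells with TGF-β against 128, 116 and 114 CPM in Co.vec cells in buffer. The groups stood apart in both lines, at log2 fold changes of −0.44 in LETS1 cells (adjusted p = 1.8e-09) and −0.36 in Co.vec cells (adjusted p = 2.2e-07). OIP5, at far lower levels, was not called, but its estimates were alike. The log2 fold change of OIP5-AS1 minus that of OIP5 was −0.112 in LETS1 cells and 0.0559 in Co.vec cells. The ratio of the 2 genes overlapped between ligand and buffer libraries in both lines, so a fall of OIP5-AS1 alone is not shown.

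Of 30 transcripts listed by name for a described role or a partner in TGF-β, mesenchymal transition or growth biology, 17 met the threshold. In LETS1 cells 3 of the 17 were higher with TGF-β (ITGB1-DT, at the integrin β1 gene, LOXL1-AS1 and SERTAD4-AS1) and 5 were lower. In Co.vec cells 1 was higher (ITGB1-DT) and 6 were lower. OIP5-AS1, HOXA-AS2, SNAI3-AS1 and MCM3AP-AS1 were lower in both lines. HOXA-AS2, from the HOXA cluster, had 2.15, 2.36 and 2.24 CPM in LETS1 cells with TGF-β against 3.71, 4.12 and 4.2 CPM in LETS1 cells in buffer, and 2.72, 2.52 and 2.16 CPM in Co.vec cells with TGF-β against 3.66, 3.22 and 3.56 CPM in Co.vec cells in buffer. The ligand groups were the lower ones without overlap, at −0.83 in LETS1 cells and −0.49 in Co.vec cells on the log2 scale; the Co.vec call was lost without Co.vec TGF-β replicate 3 (adjusted p = 0.071). The small ITGB1-DT rise in Co.vec cells (0.24, adjusted p = 0.045) was lost when any Co.vec library other than buffer replicate 3 was left out (adjusted p up to 0.147). MCM3AP-AS1 likewise lost its Co.vec call without Co.vec buffer replicate 1 or 2 or Co.vec TGF-β replicate 1 or 3 (adjusted p up to 0.181). In LETS1 cells the LOXL1-AS1 call was lost without buffer replicate 1 (adjusted p = 0.0575), that of SERTAD4-AS1 without TGF-β replicate 1 or buffer replicate 2 or 3 (adjusted p up to 0.107), and that of ITGB1-DT without TGF-β replicate 1 (adjusted p = 0.057).

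Transcript and partner were set against each other in the 435 pairs with both genes tested. In LETS1 cells, 51 pairs were called in the same direction with TGF-β (25 higher and 26 lower) and 12 in opposite directions, all 12 with the transcript lower. In 65 pairs the transcript alone was called, in 60 of them lower, and in 136 the partner alone. Co.vec cells gave 53 pairs in the same direction (29 higher and 24 lower), 16 in opposite directions, 14 of them with the transcript lower, 59 with the transcript alone (54 lower) and 143 with the partner alone. The 16 opposite pairs in Co.vec cells came to 10 without Co.vec TGF-β replicate 3 and to 11 without Co.vec buffer replicate 2 or 3. Of 128 called transcripts in these pairs, 98 were lower in LETS1 cells and 92 in Co.vec cells. Partners were called higher in 120 pairs and lower in 79 in LETS1 cells, and in 134 and 78 in Co.vec cells. With such totals most opposite pairs would have the transcript lower, so their direction is not a separate result about pairs. Across the 435 pairs the log2 fold changes of transcript and partner had a Pearson r of 0.481 in LETS1 cells and 0.473 in Co.vec cells. By rank (Spearman's rho) the values were lower, at 0.363 and 0.353. This is a description over genes, which are not independent, which come from the same libraries and whose fragments can overlap.

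By arrangement, 125 divergent pairs gave 14 in the same and 2 in opposite directions in LETS1 cells, and 11 and 6 in Co.vec cells. The 165 overlapping antisense pairs gave 22 and 6 in LETS1 cells, and 27 and 3 in Co.vec cells. Pearson's r was 0.574 over divergent and 0.483 over overlapping pairs in LETS1 cells, and 0.456 and 0.542 in Co.vec cells. Neither of these arrangements had the higher value in both lines. The 131 pairs whose heads overlap gave 12 in the same and 4 in opposite directions in LETS1 cells, and 12 and 6 in Co.vec cells. Their r was lower than both values in each line, 0.291 in LETS1 cells and 0.2455 in Co.vec cells. By rank (Spearman's rho), divergent pairs had 0.412 in LETS1 cells and 0.281 in Co.vec cells, and overlapping pairs 0.393 and 0.484. The differences between arrangements were not tested.

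**Figure D3:**
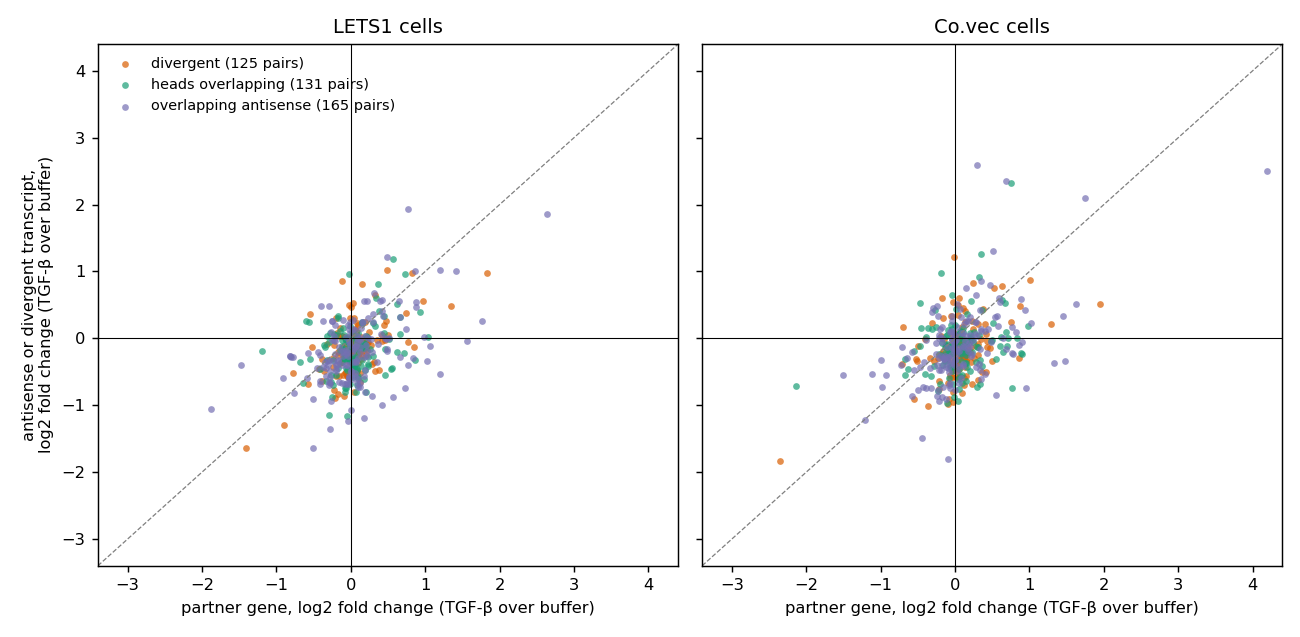
Log2 fold change with TGF-β over buffer of each transcript (vertical axis) against that of its partner gene (horizontal axis), by arrangement of the pair, in LETS1 and Co.vec cells. Points spread along both axes, and more transcripts lie below than above 0 on the vertical axis: of those called without their partner, 60 of 65 were lower in LETS1 cells and 54 of 59 in Co.vec cells.

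Pairs whose partner changed at least 2-fold were looked up after the values were seen. In LETS1 cells there were 16: of 12 partners higher with TGF-β, 7 had their transcript called higher, 4 had no call and 1 had it lower, and of 4 partners lower, 3 had it called lower. In Co.vec cells there were also 16: of 11 partners higher, 4 transcripts were called higher and 7 were not called, and of 5 partners lower, 4 had it called lower. LRRC8C, a subunit of the volume-regulated anion channel, rose by 1.82 in LETS1 cells and 1.94 in Co.vec cells on the log2 scale, while LRRC8C-DT had 0.98 ± 0.28 (adjusted p = 0.0052) and 0.52 ± 0.31 (adjusted p = 0.20). TIPARP, a mono-ADP-ribosyltransferase, rose by 1.06 in LETS1 cells and 1.47 in Co.vec cells, and TIPARP-AS1 had −0.12 ± 0.29 and −0.35 ± 0.29, neither called. LMCD1, a LIM-domain gene, rose by 1.57 in LETS1 cells and 1.33 in Co.vec cells, and LMCD1-AS1 had −0.05 ± 0.28 and −0.37 ± 0.27, neither called. The standard errors show what counts of this size can resolve, and a missed threshold does not show that a transcript did not differ. FAM131B-AS2 (chr7:143379692-143380495, minus strand), on the strand of its partner, rose by 0.68 in LETS1 cells and 1.07 in Co.vec cells with FAM131B (2.22 and 2.16).

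In 5 pairs the transcript fell and the partner rose in both lines. ZFHX3-AS1, which overlaps the gene of a zinc-finger homeobox factor, had 2.36, 2.61 and 2.49 CPM in LETS1 cells with TGF-β against 4.34, 4.96 and 4.39 CPM in LETS1 cells in buffer, and 3.03, 2.37 and 2.11 CPM in Co.vec cells with TGF-β against 4.94, 4.46 and 4.06 CPM in Co.vec cells in buffer. ZFHX3 had 142, 143 and 144 CPM in LETS1 cells with TGF-β against 95.8, 95.6 and 98.5 CPM in LETS1 cells in buffer, and 132, 136 and 131 CPM in Co.vec cells with TGF-β against 97.2, 88.5 and 86.5 CPM in Co.vec cells in buffer. The transcript's libraries with TGF-β were all below, and the partner's all above, those in buffer. The log2 fold changes of ZFHX3-AS1 were −0.87 in LETS1 cells and −0.84 in Co.vec cells, beside 0.57 and 0.55 for ZFHX3.

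TMCC1-DT, divergent to the gene of an endoplasmic reticulum membrane protein, had 4.51, 3.91 and 4.58 CPM in LETS1 cells with TGF-β against 5.57, 6.13 and 6.35 CPM in LETS1 cells in buffer, and 3.96, 4.43 and 4.47 CPM in Co.vec cells with TGF-β against 5.98, 5.75 and 6.56 CPM in Co.vec cells in buffer. TMCC1 had 73.8, 70.4 and 77.6 CPM in LETS1 cells with TGF-β against 55.6, 57.2 and 58 CPM in LETS1 cells in buffer, and 79.6, 76.8 and 71.9 CPM in Co.vec cells with TGF-β against 60, 56 and 55.5 CPM in Co.vec cells in buffer. The groups stood apart, the divergent transcript lower (−0.47 in LETS1 and −0.51 in Co.vec cells, log2) and TMCC1 higher (0.38 and 0.41). The others, with LETS1 values before Co.vec values, were CAMSAP1-DT at the gene of a microtubule minus-end protein (−0.49 and −0.62, beside 0.33 and 0.31 for CAMSAP1), GABPB1-AS1 (−0.55 and −0.21, beside 0.46 and 0.64 for the ETS-factor subunit GABPB1) and DICER1-AS1. DICER1-AS1 fell (−0.61 in LETS1 cells and −0.73 in Co.vec cells) while DICER1, which cuts microRNA precursors, rose (0.18 and 0.30).

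Some of these calls were lost when 1 library was left out, and the cause of the losses was not tested. The DICER1 call in LETS1 cells was lost without LETS1 buffer replicate 2 (0.14, adjusted p = 0.068). The CAMSAP1-DT call in LETS1 cells was lost without LETS1 TGF-β replicate 3 (adjusted p = 0.054). For DICER1-AS1 the LETS1 call was lost without TGF-β or buffer replicate 2 (adjusted p = 0.072 and 0.080) and the Co.vec call without TGF-β or buffer replicate 3 (adjusted p = 0.063 and 0.058). GABPB1-AS1 lost its Co.vec call without Co.vec buffer replicate 1 or 2 or Co.vec TGF-β replicate 1 or 3 (adjusted p up to 0.121). The ZFHX3-AS1 and TMCC1-DT calls held whichever library was left out.

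Few of the transcripts passed the test between LETS1 and Co.vec cells. With TGF-β, 10 were higher and 13 lower in LETS1 than in Co.vec cells, 4.85% of the 474, where 14.1% of all genes passed (7.58% higher and 6.5% lower). In buffer, 16 were higher and 13 lower, 6.12%, against 15.1% of all genes (8.57% higher and 6.56% lower). Of the 428 partners, 33 were higher and 30 lower with TGF-β, and 45 higher and 29 lower in buffer. The 2 LETS1 comparisons share no library, and 6 transcripts were called the same way in both: MSC-AS1 and CTBP1-DT higher, and SSTR5-AS1, IGFL2-AS1, SNRPF-DT and PSMA3-AS1 lower. These 6 were picked out after their values were seen, and the like number over all tested genes was not counted. Without Co.vec TGF-β replicate 2, 15 transcripts were called with TGF-β, and without LETS1 buffer replicate 2, 19 were called in buffer. At an unadjusted p under 0.05 there were 79 of the 474 with TGF-β and 82 in buffer, against 4195 and 4287 of all genes.

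SSTR5-AS1 (chr16:1064093-1078731, minus strand) leaves the promoter of SSTR5, a somatostatin receptor, without sharing exon bases with it. It had 1.69, 1.86 and 1.78 CPM in LETS1 cells against 5.34, 4.59 and 4.12 CPM in Co.vec cells with TGF-β, and 1.12, 1.52 and 1.51 CPM in LETS1 cells against 3.76, 4.66 and 4.01 CPM in Co.vec cells in buffer. All 6 LETS1 libraries were below all 6 Co.vec libraries. The LETS1 difference was −1.39 ± 0.17 with TGF-β (log2, adjusted p = 3.7e-08) and −1.57 ± 0.18 in buffer (adjusted p = 6.8e-09). SSTR5 had 0.922, 0.552 and 0.458 CPM in LETS1 cells against 1.18, 1.34 and 1.21 CPM in Co.vec cells with TGF-β, and 1.07, 0.834 and 0.928 CPM in LETS1 cells against 1.73, 2.38 and 1.95 CPM in Co.vec cells in buffer. It was lower in LETS1 cells as well, with log2 differences of −0.94 with TGF-β (adjusted p = 0.022) and −1.09 in buffer. The SSTR5 call with TGF-β was lost without LETS1 TGF-β replicate 2 or 3 (adjusted p = 0.098 and 0.117) or Co.vec TGF-β replicate 2 (adjusted p = 0.077).

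IGFL2-AS1 (chr19:46189166-46203083, minus strand) shares no bases with IGFL2, a gene of the insulin growth factor-like family. It had 43.9, 43.6 and 43.9 CPM in LETS1 cells against 73.5, 70.6 and 63.7 CPM in Co.vec cells with TGF-β, and 45, 43.7 and 39.3 CPM in LETS1 cells against 63.5, 66.2 and 66.9 CPM in Co.vec cells in buffer. LETS1 and Co.vec libraries did not overlap with or without the ligand. The log2 difference was −0.66 with TGF-β (adjusted p = 1.2e-11) and −0.62 in buffer (adjusted p = 5.3e-11). IGFL2 had 1.02, 0.903 and 1.22 CPM in LETS1 cells against 1.13, 0.773 and 0.903 CPM in Co.vec cells with TGF-β, and was called in neither LETS1 comparison. PSMA3-AS1, across the gene of a proteasome α subunit, was lower by smaller amounts (−0.31 with TGF-β and −0.27 in buffer), with 21.3, 23.3 and 22.2 CPM in LETS1 cells against 28.4, 29.3 and 24.9 CPM in Co.vec cells with TGF-β.

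SNRPF-DT (chr12:95795345-95858839, minus strand), divergent to the gene of an Sm core protein of the spliceosome, had 1.69, 1.2 and 1.42 CPM in LETS1 cells against 2.16, 2.37 and 2.46 CPM in Co.vec cells with TGF-β, and 1.42, 1.18 and 1.61 CPM in LETS1 cells against 3.31, 2.68 and 1.65 CPM in Co.vec cells in buffer. LETS1 libraries were the lower ones, narrowly so in buffer, with log2 differences of −0.69 with TGF-β and −0.86 in buffer; SNRPF was not called. Without Co.vec buffer replicate 1 the buffer call was lost (−0.63, adjusted p = 0.078), and the call with TGF-β was lost without LETS1 TGF-β replicate 2 or 3 or Co.vec TGF-β replicate 2 or 3 (adjusted p up to 0.15). MSC-AS1 had 9.53, 8.88 and 9.61 CPM in LETS1 cells against 7.24, 7.01 and 7.13 CPM in Co.vec cells with TGF-β, and 6.54, 6.67 and 7.08 CPM in LETS1 cells against 5.63, 5.55 and 4.81 CPM in Co.vec cells in buffer. LETS1 libraries were the higher ones without overlap, by 0.39 with TGF-β and 0.34 in buffer on the log2 scale, and MSC, the gene of the bHLH repressor musculin, was higher by 0.30 and 0.38. The MSC-AS1 call in buffer was lost without LETS1 buffer replicate 2 or 3 or Co.vec buffer replicate 2 or 3 (adjusted p up to 0.159). CTBP1-DT was higher by 0.30 with TGF-β and 0.24 in buffer; its call in buffer was lost without any of the LETS1 buffer libraries or without Co.vec buffer replicate 3 (adjusted p up to 0.253), and its call with TGF-β without Co.vec TGF-β replicate 2 (adjusted p = 0.113) or LETS1 TGF-β replicate 3 (adjusted p = 0.063).

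**Figure D4:**
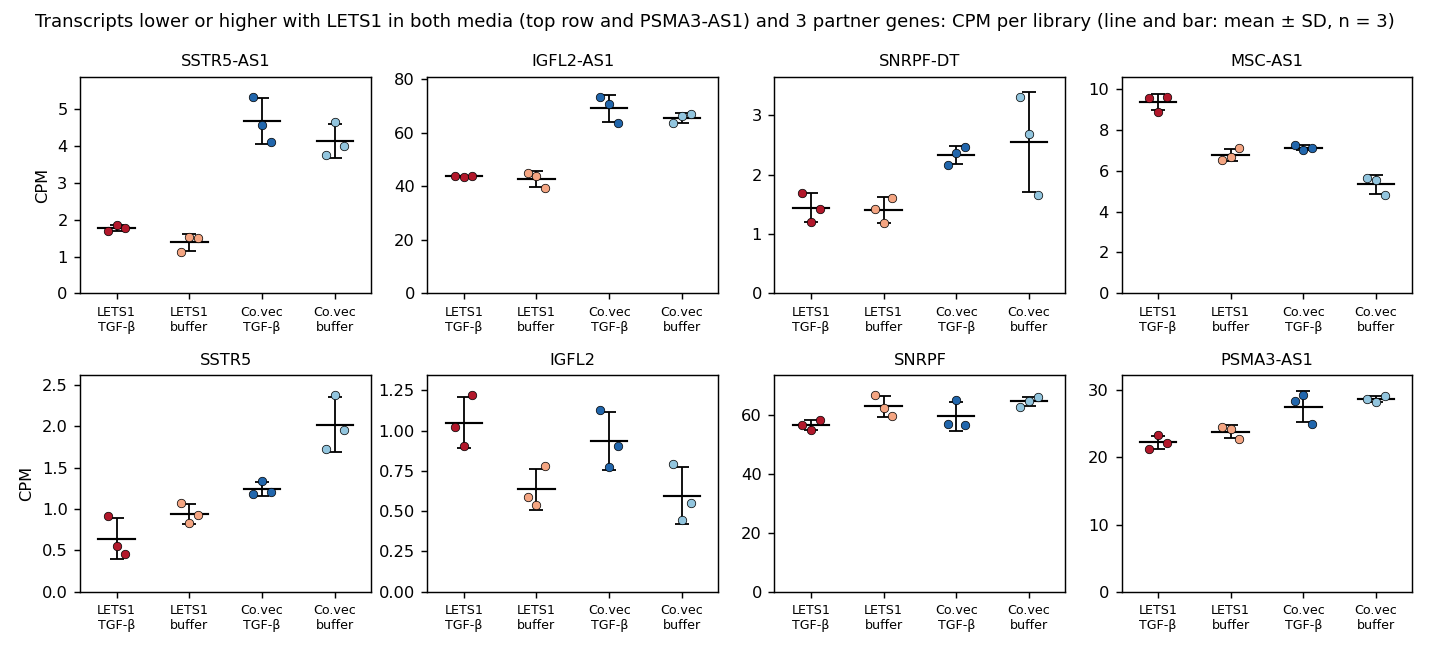
Level in CPM (vertical axis from 0) of SSTR5-AS1, IGFL2-AS1, SNRPF-DT, MSC-AS1, SSTR5, IGFL2, SNRPF and PSMA3-AS1 in each library of the 4 groups, with points for libraries and lines with bars for the mean ± SD (n = 3). SSTR5-AS1 and IGFL2-AS1 are lower in every LETS1 library than in any Co.vec library, while SNRPF and IGFL2 show no such gap.

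In the pairs, LETS1 with TGF-β gave 4 called in the same direction, 1 in opposite directions (GOT1-DT lower with its partner, a cytosolic aspartate aminotransferase gene, higher), 17 with the transcript alone and 58 with the partner alone. In buffer there were 13 in the same direction (6 higher and 7 lower), 1 in opposite directions (RPL26L1-AS1 higher with its partner lower), 13 with the transcript alone and 61 with the partner alone. Pairs in the same direction came to 2 with TGF-β without Co.vec TGF-β replicate 2, and in buffer to 8 without LETS1 buffer replicate 2 and 6 without Co.vec buffer replicate 3. Neither opposite pair kept both calls throughout: GOT1-DT lost its call without Co.vec TGF-β replicate 2 (adjusted p = 0.091), GOT1 without LETS1 TGF-β replicate 2 (adjusted p = 0.090), RPL26L1-AS1 without any of 5 libraries of that comparison (adjusted p up to 0.176) and RPL26L1 without any of the 6 (adjusted p up to 0.193). SETBP1-DT had 0.586, 0.54 and 0.244 CPM in LETS1 cells against 1.19, 0.892 and 1.55 CPM in Co.vec cells in buffer, with no overlap. It was lower by a log2 difference of −1.39 and its partner SETBP1, whose protein binds the oncoprotein SET, by −0.91.

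The difference between the ligand responses of LETS1 and Co.vec cells passed the test for 2 of the 474, both lower in LETS1 cells, where 0.599% of all genes passed in that direction; at an unadjusted p under 0.05 there were 54 of the 474 and 1282 of all 16192 genes. IDI2-AS1 (chr10:1022666-1044201, plus strand), antisense to an isopentenyl-diphosphate isomerase gene too low to test, had 1.54, 1.71 and 1.17 CPM in LETS1 cells with TGF-β against 1.9, 2.4 and 2.15 CPM in LETS1 cells in buffer. In Co.vec cells it had 1.8, 2.22 and 1.61 CPM with TGF-β against 1.19, 0.991 and 1.3 CPM in buffer. The ligand groups were the lower ones in LETS1 cells and the higher ones in Co.vec cells, without overlap in either. The responses were −0.55 in LETS1 cells and 0.69 in Co.vec cells on the log2 scale, a difference of −1.23 ± 0.31 (adjusted p = 0.039).

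RUSC1-AS1 (chr1:155316863-155324176, minus strand) had 3.23, 3.91 and 3.86 CPM in LETS1 cells with TGF-β against 6.2, 5.2 and 5.37 CPM in LETS1 cells in buffer, and 6.78, 5.98 and 4.07 CPM in Co.vec cells with TGF-β against 4.1, 5.11 and 4.76 CPM in Co.vec cells in buffer. The ligand group was the lower one in LETS1 cells, and the groups overlapped in Co.vec cells. The responses were −0.61 in LETS1 cells and 0.27 in Co.vec cells (adjusted p = 0.15), a difference of −0.87 ± 0.21 (adjusted p = 0.033). RUSC1, the gene of an adaptor protein, was not called in any comparison. Both interaction calls were lost when 1 library was left out in most cases, IDI2-AS1 with an adjusted p of up to 0.182 (without Co.vec TGF-β replicate 2) and RUSC1-AS1 of up to 0.179 (without Co.vec TGF-β replicate 1), where the differences were −1.10 and −0.72.

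**Figure D5:**
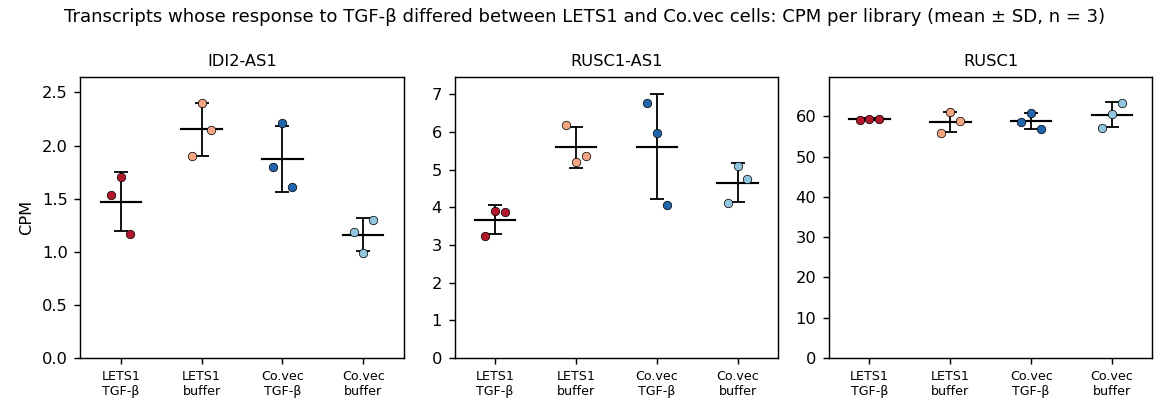
Level in CPM (vertical axis from 0) of IDI2-AS1, RUSC1-AS1 and RUSC1 in each library of the 4 groups, with points for libraries and lines with bars for the mean ± SD (n = 3). With TGF-β, IDI2-AS1 is lower in LETS1 cells and higher in Co.vec cells than in buffer, and RUSC1-AS1 is lower in LETS1 cells, while the RUSC1 groups overlap.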

How the data were processed

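RNA of 12 A549 cultures (4 groups, 3 libraries each) was sequenced on a DNBSEQ instrument. The authors deposited raw counts of fragments per gene. Per the submitters' processing notes, the tools were FastQC, cutadapt 2.10, STAR 2.7.5a and HTSeq 0.12.4, with the build GRCh38. The sources used here give neither the annotation release nor the strand setting. Rows that name no gene stayed out of library sizes: fragments outside any gene were 2.81% to 3.53%, and those in more than 1 gene 10.1% to 10.9%.

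Transcripts were chosen on plain CPM, with the sum of the gene rows as library size. Tests used edgeR 4.0.16 in R 4.3.3: filterByExpr, TMM, a robust quasi-likelihood fit with 1 mean per group over all 12 libraries, and Benjamini-Hochberg adjustment over 16192 genes (threshold 0.05). Printed CPM values are TMM-scaled, and errors of log2 fold changes are standard errors. The fit was tested on simulated data. Positions come from GENCODE 29 and windows from RefSeq (GRCh38.p14). Figures were drawn with matplotlib 3.10.9.

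Genes were named by rule: in each comparison the up to 8 largest rises and falls among called transcripts whose groups do not overlap, up to 4 each way for the interaction, pairs called in opposite directions, the 6 highest levels, 3 names on each side of the threshold, and 30 fixed names. Transcripts and lists were chosen with earlier results of these data known. Alternatives were RLE scaling, no filter, DESeq2 1.42.0, a replicate block, the 6 libraries compared alone, and leaving out each library. Replicates of a group differed by more than sampling noise (chi-square per degree of freedom 2.16 to 5.24). Same-numbered libraries did not deviate together: 0 of 18 correlations exceeded 0.1. Intervals cover counting error only.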

Additional observations from a re-analysis of the deposited data

Results flagged for a closer look

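The ligand response of 6 named genes was lower in LETS1 than in Co.vec cells by the interaction term of the edgeR fit (adjusted p under 0.05). The difference in log2 fold change was −1.23 for IDI2-AS1 and −0.873 for RUSC1-AS1. Among partners it was −0.657 for ELF3, −0.58 for DUSP5 (a phosphatase of MAP kinases), −0.443 for INSIG1 (a regulator of cholesterol synthesis) and −0.279 for FOSL2 (an AP-1 subunit). DUSP5 had a response of −0.42 in LETS1 cells and 0.16 in Co.vec cells.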

How the results depend on the processing

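Transcripts called lower with TGF-β in both lines numbered 46 to 57 when a library was left out, 42 without the filter and 39 under DESeq2, and pairs in opposite directions 9 to 12 in LETS1 cells and 10 to 18 in Co.vec cells when a library was left out, and 8 and 11 under DESeq2. DESeq2 called fewer transcripts: 14 for LETS1 with TGF-β, 16 for LETS1 in buffer and 0 for the interaction, with 2 and 6 pairs in the same direction for LETS1; for the ligand it called 25 higher and 75 lower in LETS1 cells and 32 higher and 67 lower in Co.vec cells. Leaving out each library gave 112 to 138 transcripts called with TGF-β in LETS1 cells, 106 to 137 in Co.vec cells, 15 to 23 for LETS1 with TGF-β, 19 to 30 for LETS1 in buffer and 0 to 3 for the interaction. Pairs in the same direction ranged over 38 to 52, 36 to 53, 2 to 5 and 6 to 14 in the same order. The replicate block gave 136, 137, 24, 27 and 2 transcripts called. Same-numbered libraries correlated at −0.0573 to 0.0472, so the numbers were not taken to pair the libraries. Without the filter, 31 were higher and 82 lower with TGF-β in LETS1 cells and 36 higher and 75 lower in Co.vec cells.

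No named log2 fold change that was called reversed under these alternatives. Of 320 named calls, 102 were lost at least once when a library was left out, 55 under DESeq2, 31 without the filter, 11 with the block and 1 with RLE scaling; with the 6 libraries alone it was 15 of 315. The cause of the losses was not tested. Most transcripts lie under 5 CPM, and reads of a gene and its antisense partner could not be separated.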
